A study of Mus musculus with 14 samples.

Results

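Macrophages that received GW7845, an agonist of the nuclear receptor PPARγ, together with lipopolysaccharide (LPS) were compared with untreated macrophages, to describe the LPS response that was present with the agonist. The comparison rests on 4 of the 14 arrays of the series, those titled GW7845 + LPS 1 and 2 and No treatment 1 and 2. It covers all 10012 probes of the deposited table, of which 9584 had enough signal to be tested. In both groups the cells were primary thioglycollate-elicited macrophages, drawn out by an irritant broth, of female C57BL/6 mice aged 6 weeks. The labels name no genetic change and no further treatment in either group. Each group had 2 biological replicates, and whether a replicate was 1 animal or pooled cells was not stated. The p-values rest on a spread pooled over all 14 arrays, with a grouping of the arrays, described below, taken out. That spread may be technical and is not that of these 4 arrays alone. The sources used here give no dose and no time. Arrays of GW7845 without a stimulus were not analysed here, so what LPS and what GW7845 by itself contributed to a difference from untreated cells cannot be told apart in this comparison.

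LPS, a component of the outer membrane of Gram-negative bacteria, is bound by TLR4 with the co-receptors CD14 and MD-2 (Ly96). The adaptor MyD88 passes the signal to NF-κB and the cytokine genes, and the adaptor TRIF passes it to interferon β, which acts on the cell through its receptor, JAK kinases and STAT proteins to switch on the interferon-stimulated genes. PPARγ binds fatty acid derivatives and, paired with a retinoid X receptor (RXR), switches on genes of lipid uptake and storage; in macrophages it is known to restrain some inflammatory genes. Liver X receptors (LXRs), the targets of the agonist GW3965 used in another group, switch on genes of cholesterol export.

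Levels are given as the log2 of the deposited intensity, on which 0 is the median probe of an array, and differences are GW7845 + LPS minus untreated in log2 units, where 1 is a doubling, each with its standard error (SE) from a limma fit. A difference is called, and a gene said to have risen or fallen, at a Benjamini-Hochberg adjusted p under 0.05. Values under a floor of -3.87 were raised to it, so where untreated arrays lay there an increase is given as a minimum. The arrays fell into 2 sets by the 10th percentile of intensity, 0.137 to 0.271 in set A and 0.0549 to 0.0833 in set B; GW7845 + LPS 2 and untreated 1 were in set A, and GW7845 + LPS 1 and untreated 2 in set B. The fit took the set as a block, and counts without that block are given beside the main ones. Within a group the Spearman correlation of the 2 arrays was 0.951 with GW7845 + LPS and 0.953 without treatment. The summed intensity of the 8 measured macrophage markers was 1143 to 1950 in untreated cells and 1570 to 1692 with GW7845 + LPS. Most of each sum came from Lyz2, at a log2 level of 10.79 and 9.96 in untreated cells and 10.05 and 10.11 with GW7845 + LPS. Cd14, another of the 8, itself rose, so the sum is no measure of the share of macrophages. Markers of other cells were also above the floor: in untreated cells and with GW7845 + LPS, in that order, the sums were 13.3 to 16.7 and 14.4 to 14.6 for 6 B cell markers, 19.6 to 24.1 and 15.2 to 20.4 for 6 T and NK cell markers, 16.4 to 28.4 and 31.8 to 39.4 for 5 neutrophil markers, and 8.78 to 10.6 and 10.8 to 16.4 for 5 mast cell markers. Most of the neutrophil sums came from S100a8, at 4.74 and 3.95 in untreated cells and 5.19 and 4.78 with GW7845 + LPS. Its difference of 0.64 (SE 0.34, adjusted p = 0.23) did not pass. Gzma likewise made up most of the T and NK cell sums, and Tpsb2 most of the mast cell sums. For the 4 eosinophil, 5 mesothelial and fibroblast and 2 erythroid markers the sums stayed at or below 6.36, and no marker of any of these lists lay at the floor on every array. Among these, the neutrophil granule genes Camp rose by 3.84 (SE 0.35) and Ltf fell by 1.84 (SE 0.50; adjusted p = 0.31 without the block), the T cell gene Cd2 fell by 1.50 (SE 0.42, adjusted p = 0.10 without the block), and the mast cell gene Mcpt4 rose by 1.54 (SE 0.49, adjusted p = 0.25 without the block). Only markers with enough signal to be tested were summed, so values above the floor do not show that these cells were present. The part of other cells in the results was not tested, and in RNA of whole cultures fewer cells of a type and less RNA per cell cannot be told apart.

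With GW7845 present, LPS-treated cells differed from untreated cells at 1688 of the 9584 probes (17.6%), 826 higher (8.62%) and 862 lower (8.99%). The increases were the larger ones: 311 probes (3.24%) were called at least 4-fold higher against 165 (1.72%) at least 4-fold lower, and 76 (0.793%) at least 16-fold higher against 5 (0.0522%) at least 16-fold lower. The smallest difference called was 0.71. Groups that did not overlap were common among all probes, at 3883 of 9584 (40.5%). The direction was shared by array sets A and B for 1685 of the 1688 called probes, and for 65.7% of all probes measured in both. With the set as a block, disagreement between the sets counts as spread. The agreement of called probes therefore largely follows from the call and is no separate support. Without the array-set block 628 probes were called (6.55%), 416 higher (4.34%) and 212 lower (2.21%), and leaving out GW7845 + LPS 2 or untreated 1 left 841 and 857.

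**Figure D1:**
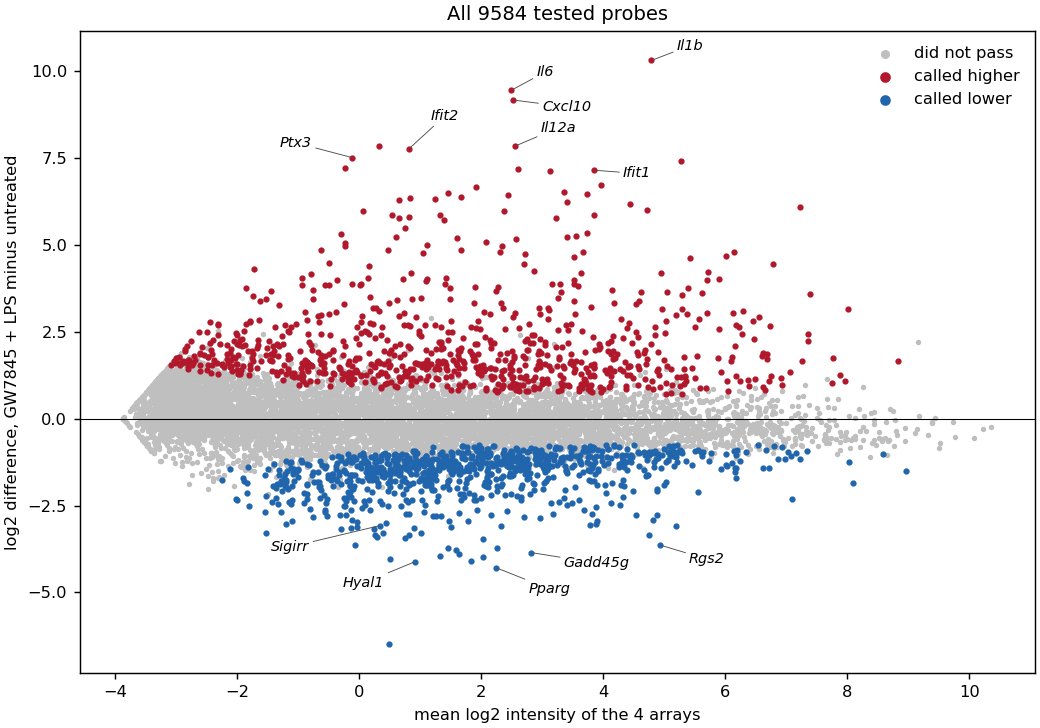
Each point is 1 of the 9584 tested probes. The horizontal axis is the mean log2 intensity of the 4 arrays and the vertical axis the log2 difference, GW7845 + LPS minus untreated; red points were called higher and blue points lower at an adjusted p under 0.05. Increases reach 10.30 (Il1b), while the largest decrease of a named gene is -4.29 (Pparg).

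The inflammatory cytokines held the largest increases. Of the 19 tested, 15 rose and 1 fell, with a median difference of 3.53 against 0.06 over all tested probes. Without the array-set block 12 rose and 0 fell. List counts of the main fit, here and below, are to be read against the 8.62% of all tested probes called higher and the 8.99% called lower. A single decrease, as in this list and several below, is under that 8.99%. Counts without the block are to be read against 4.34% called higher and 2.21% called lower. Fits that left out 1 array also called fewer probes. Il1b, the secreted pyrogen of the inflammasome pathway, lay at 0.67 and -1.39 in untreated cells and at 9.64 and 10.24 with GW7845 + LPS, and rose by 10.30 (SE 0.59, adjusted p = 2.8e-08). Il6, the inducer of the acute-phase response, went from -1.66 and -2.80 to 7.24 and 7.18, an increase of 9.44 (SE 0.33, adjusted p = 8.6e-10). For both genes the 2 treated arrays stood far above the 2 untreated ones and close to each other. The shared interleukin-12 and interleukin-35 subunit Il12a went from -1.04 and -1.68 to 6.36 and 6.60, an increase of 7.84 (SE 0.30). Il1a, the cell-bound interleukin-1, went from 0.60 and 2.55 to 9.05 and 8.90, an increase of 7.40 (SE 0.72). Tnf, an early cytokine of the NF-κB response, went from -0.61 and -0.27 to 6.60 and 6.76, an increase of 7.12 (SE 0.33). None of these 3 genes had overlapping groups, which the rule that named the largest increases required.

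Il10, which restrains inflammation, showed a smaller change. It lay at -1.93 and -2.69 in untreated cells and at -0.92 and -0.30 with GW7845 + LPS, an increase of 1.70 (SE 0.31, adjusted p = 0.0017), which did not pass without the block (adjusted p = 0.12). The growth factor Csf1 rose by 2.48, the T cell and NK cell growth factor Il15 by 2.24 (SE 0.27) and the natural interleukin-1 antagonist Il1rn by 4.19. Lta, a lymphotoxin, was the 1 member that fell, by 1.45 (adjusted p = 0.11 without the block), and that call was also lost without GW7845 + LPS 2 or untreated 1. Tgfb1 at 0.18 (SE 0.36), Ltb at 0.18 (SE 0.45) and Lif at -0.30 did not pass. Il12b and Ifnb1 were not analysed here.

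**Figure D2:**
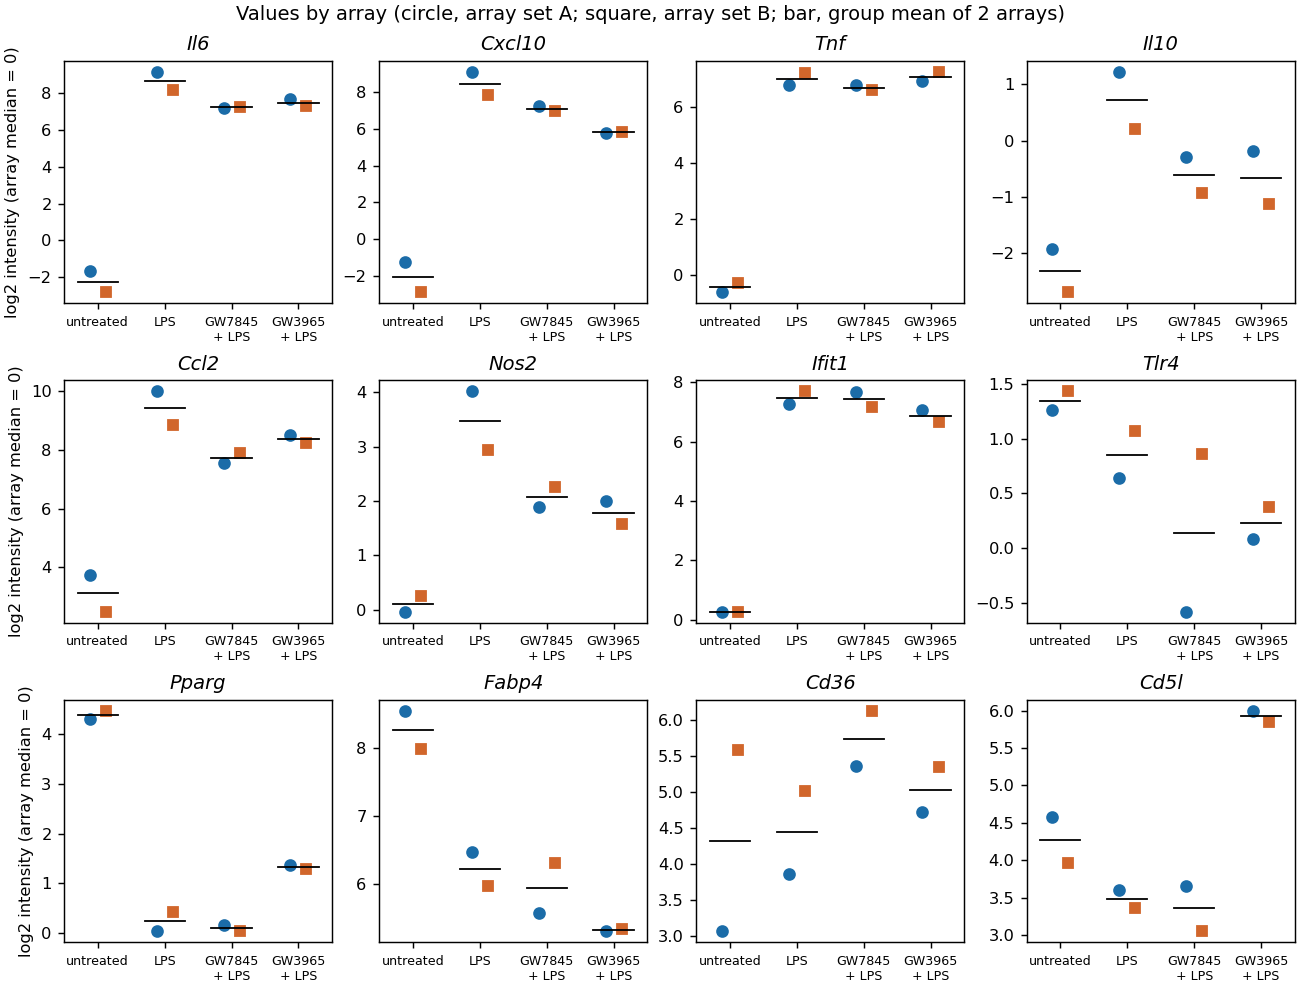
Log2 intensity of 12 genes on each of the 8 arrays without poly(I:C), in 4 groups of 2; circles are arrays of set A, squares arrays of set B and bars the mean of 2 arrays. Il6 and Tnf are near or under the array median in untreated cells and between 6.60 and 9.13 in all 6 LPS-treated arrays, Pparg is at 4.30 and 4.47 in untreated cells and at 0.04 and 0.15 with GW7845 + LPS, and the 2 groups overlap for Cd36.

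Of 23 chemokines tested, 15 rose and 0 fell (median difference 2.81; 13 rose without the block). Cxcl10, the interferon-induced attractant of T cells, lay at -1.25 and -2.87 in untreated cells and at 6.95 and 7.26 with GW7845 + LPS, and rose by 9.17 (SE 0.38, adjusted p = 1.3e-09). The neutrophil attractant Cxcl1 went from 0.78 and 0.44 to 7.84 and 6.80, an increase of 6.71 (SE 0.49). The monocyte attractant Ccl2 went from 3.74 and 2.49 to 7.90 and 7.55, an increase of 4.61 (SE 0.35). Ccl7, another monocyte attractant, rose by 6.24 (SE 0.36), and Ccl5, which draws T cells and monocytes, by 6.09 (SE 0.33). In each of these genes both treated arrays lay above both untreated arrays. Ccl17, an attractant of T helper cells, rose by at least 2.84 with 1 untreated array at the floor, and did not pass without the block (adjusted p = 0.087). The 2 members of highest intensity that did not pass were Ccl6 at -0.16 (SE 0.33) and the platelet factor Pf4 at 0.19 (SE 0.33).

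Among 25 effectors and mediators of inflammation, 16 rose and 1, the leukotriene pathway gene Alox5ap, fell by 1.41 (median 2.04; 15 rose and 0 fell without the block, and Alox5ap lost its call without GW7845 + LPS 2 or untreated 1). The soluble pattern-recognition protein Ptx3 was at the floor on both untreated arrays and at 3.22 and 4.06 with GW7845 + LPS, an increase of at least 7.51 (SE 0.49). Ptgs2 (COX-2), which makes the precursor of prostaglandins, lay at the floor and at -3.80 in untreated cells and at 3.005 and 3.76 with GW7845 + LPS, an increase of at least 7.22 (SE 0.68). Ptges, which completes prostaglandin E synthesis, rose by 6.39 (SE 0.24), and the vasoconstrictor peptide gene Edn1 by 5.77 (SE 0.33). Enzymes of both steps of prostaglandin E synthesis were therefore among the increases. Nos2, the inducible nitric oxide synthase, went from -0.03 and 0.26 to 2.27 and 1.90, an increase of 1.97 (SE 0.36, adjusted p = 0.0018), with no overlap of the groups. The elastase Mmp12 at -0.14 (SE 0.55) and the urokinase receptor Plaur at 1.07 (SE 0.43, adjusted p = 0.11) did not pass.

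Interferon-stimulated genes rose almost as a whole: 34 of 36 tested were called higher and 0 lower, with a median difference of 3.63, and 31 were called higher without the block. The antiviral genes Ifit2 (7.77, SE 0.50), Rsad2, which encodes viperin (7.18, SE 0.36), Ifit1 (7.15, SE 0.39) and Mx1 (6.65, SE 0.26) led the list. Ifit1 lay at 0.28 and 0.28 in untreated cells and at 7.18 and 7.67 with GW7845 + LPS. Rsad2 went from -1.82 and -0.15 to 7.14 and 5.26, and its values differed by more than 1 between the array sets in each group, while the groups did not overlap. The smallest increase called was that of the sialic acid receptor Siglec1, at 1.43 (adjusted p = 0.34 without the block). Ifi204 at 2.41 (SE 0.97, adjusted p = 0.11) and Ly6c1, at 1.15 with 1 untreated array at the floor (adjusted p = 0.16), did not pass.

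Because the largest increases were in cytokine and interferon-stimulated genes, the bases before the start of the measured genes were searched on both strands for 2 patterns. The first, GGG followed by any 2 bases and then TTTCC, is a form of the site bound by NF-κB (kB). The second, GAAA followed by any 2 bases and then GAAA, is a core of the interferon-stimulated response element (ISRE). The search covered the 250 bases before each RefSeq start (GRCm38.p6). The 2 patterns do not overlap in the windows printed here. Windows of 4 genes are shown as examples from the 2 leading responses, written 5′ to 3′ along the strand of the gene with the matches in capitals. All 4 were among the 12 largest increases. All 4 windows hold a match, unlike most windows of the genes called at least 16-fold higher.
Il6, chr5:30012864-30013113, strand plus: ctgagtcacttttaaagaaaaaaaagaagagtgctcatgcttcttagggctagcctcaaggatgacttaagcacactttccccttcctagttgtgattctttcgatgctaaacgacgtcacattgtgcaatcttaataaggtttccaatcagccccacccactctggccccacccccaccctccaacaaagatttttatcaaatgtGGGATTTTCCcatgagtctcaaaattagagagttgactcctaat
Cxcl10, chr5:92348890-92349139, strand minus: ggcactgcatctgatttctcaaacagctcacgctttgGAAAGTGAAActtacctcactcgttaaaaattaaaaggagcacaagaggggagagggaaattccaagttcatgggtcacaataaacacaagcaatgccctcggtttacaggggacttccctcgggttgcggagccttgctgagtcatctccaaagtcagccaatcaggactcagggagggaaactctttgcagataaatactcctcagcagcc
Ifit1, chr19:34640639-34640888, strand plus: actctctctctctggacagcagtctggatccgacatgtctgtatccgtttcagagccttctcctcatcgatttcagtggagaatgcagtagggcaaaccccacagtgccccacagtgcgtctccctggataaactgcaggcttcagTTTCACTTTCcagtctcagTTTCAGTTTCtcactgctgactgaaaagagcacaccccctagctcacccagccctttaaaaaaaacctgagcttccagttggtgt
Rsad2, chr12:26456453-26456702, strand minus: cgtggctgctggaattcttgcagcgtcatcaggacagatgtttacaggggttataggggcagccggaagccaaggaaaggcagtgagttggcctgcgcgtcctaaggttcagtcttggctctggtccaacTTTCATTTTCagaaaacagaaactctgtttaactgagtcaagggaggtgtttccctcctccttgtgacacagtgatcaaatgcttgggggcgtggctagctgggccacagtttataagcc
The Il6 window holds 1 kB match, which begins 44 bases before the start. Cxcl10 has an ISRE match that begins 213 bases before the start, Rsad2 one at 120 bases and Ifit1 a pair at 104 and 85 bases, the last 3 on the opposite strand. Of 69 genes called at least 16-fold higher, 56 had a window (81.2%), and 12 of these held the ISRE letters (21.4%) and 3 the kB letters (5.36%). The windows of these 56 genes had a median of 50.4% G and C bases, against 58.4% over all tested genes. The part of this base composition in the shares was not tested. Of 751 genes called lower, 618 had a window, of which 2.1% held the ISRE letters and 1.13% the kB letters. Over all 8468 tested genes, 6780 had a window, of which 3.5% held the ISRE letters and 1.73% the kB letters. Of 747 genes called higher, 593 had a window, of which 6.75% held the ISRE letters and 2.87% the kB letters, lower shares than among the at least 16-fold increases. A window was present for 79.4% of the genes called higher, 82.3% of those called lower and 80.1% of all tested genes. Each class thus lacks windows for some genes, and none of these shares serves as a check. A match is a description of the letters and was not tested as a site.

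Of 13 tested genes of the TLR4 complex and its adaptors, 3 rose and 3 fell, against 8.62% and 8.99% of all tested probes. Without the block 2 rose and 1 fell. On leaving out 1 array 2 to 3 rose and 1 to 2 fell, with 1 decrease left without untreated 1. The co-receptor Cd14 went from 6.63 and 5.66 to 8.37 and 8.79, an increase of 2.43 (SE 0.29), and the adaptor Myd88 from 2.79 and 2.90 to 4.92 and 5.09, an increase of 2.15 (SE 0.24); the kinase-binding protein gene Tab2 rose by 0.93 (adjusted p = 0.11 without the block). Sigirr, an inhibitory receptor of the family, went from 2.23 and 1.53 to -1.57 and -0.84 and fell by 3.08 (SE 0.35, adjusted p = 2.1e-05). Tlr4 itself lay at 1.26 and 1.43 in untreated cells and at 0.86 and -0.58 with GW7845 + LPS, and fell by 1.20 (SE 0.35, adjusted p = 0.029). The receptor-associated kinase Irak1 fell by 1.25 (SE 0.27). The calls of Tlr4 (adjusted p = 0.22) and Irak1 (adjusted p = 0.23) were lost without the block, that of Tlr4 also when GW7845 + LPS 2 or either untreated array was left out, and that of Irak1 without GW7845 + LPS 1 or untreated 1. Ly96 at -0.30 (SE 0.43) and the kinase Map3k7 (TAK1) at 1.20 (SE 0.57) did not pass.

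Other pattern-recognition receptors were higher: 8 of 13 rose and 0 fell, with or without the block. These were Clec4e, the C-type lectin Mincle (5.35, SE 0.25), the cytosolic RNA sensors Ifih1 (4.67, SE 0.24) and Dhx58 (4.06, SE 0.44), the nucleic acid sensor Zbp1, and 4 Toll-like receptors. Tlr2, the receptor for bacterial lipopeptides, rose by 4.23 (SE 0.22), and Tlr3, the receptor for double-stranded RNA, went from -1.43 and -0.14 to 2.09 and 2.41, an increase of 3.03 (SE 0.35). Tlr1 rose by 1.86 and Tlr6 by 1.41. The β-glucan receptor Clec7a at -0.31 (SE 0.72) and Ly86 at -0.08 (SE 0.32) did not pass.

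The NF-κB subunits and their feedback genes showed 14 of 17 higher and 0 lower (median 2.40; 12 without the block). The inhibitor Nfkbie rose by 4.15 (SE 0.45), the signalling adaptor Traf1 by 3.98 (SE 0.23), the precursor subunit Nfkb2 by 3.87 (SE 0.28) and Cflar, which blocks caspase-8, by 3.87 (SE 0.23). The kinase subunit Ikbkb at -0.33 (SE 0.25) and the ubiquitin ligase Birc2 at 0.31 (SE 0.32) did not pass. Of 20 inhibitors of cytokine signalling, 9 rose and 1 fell (7 and 1 without the block). Socs1, which blocks JAK kinases, went from -0.41 and -1.57 to 3.77 and 4.66, an increase of 5.20 (SE 0.35), and Socs3 rose by 4.44 (SE 0.26). The ERK pathway inhibitors Spred1 and Dusp4 rose by 3.30 (SE 0.45) and 2.94 (SE 0.30), and Socs6 fell by 2.24. The phosphatases Ptpn1 at 0.62 (SE 0.28) and Ptpn2 at 0.86 (SE 0.30) did not pass.

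Of 31 transcription factors and kinases of the interferon and cytokine pathways, 11 rose and 3 fell, against 8.62% and 8.99% of all tested probes, so the share that fell was near that of all probes (8 and 0 without the block, and 7 or 8 and 0 on leaving out any 1 of the 4 arrays). The interferon regulatory factors Irf7 (3.58, SE 0.24) and Irf1 (3.01, SE 0.26), the interferon signal carrier Stat2 (3.32, SE 0.34) and the receptor kinase Jak2 (3.06, SE 0.27) rose most. The members that fell were the AP-1 subunits Jun (-2.49) and Fos (-1.68) and the interleukin-4 signal carrier Stat6 (-0.84). Atf3 at 0.49 (SE 0.40) and Jund at -0.25 (SE 0.37) did not pass. Of 23 cytokine and chemokine receptors, 4 rose and 2 fell, against 8.62% and 8.99% of all probes (3 and 0 without the block; 6 rose without GW7845 + LPS 1). The increases were those of the atypical chemokine receptor Ccrl2 (3.09, SE 0.28), the TNF receptor Tnfrsf1b (2.94, SE 0.43), Il15ra (2.71, SE 0.28) and the interferon receptor chain Ifnar2 (2.25; adjusted p = 0.17 without the block). Ccr2, the receptor of Ccl2, went from -0.69 and 0.26 to -3.07 and -1.92 and fell by 2.28 (SE 0.51), with an adjusted p of 0.075 without the block and no call without GW7845 + LPS 1 or untreated 2. The interferon γ receptor chain Ifngr1 fell by 1.30 (adjusted p = 0.28 without the block).

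In antigen presentation and costimulation, 10 of 22 tested genes rose and 1, H2-DMa, fell by 1.49 (median 0.81; adjusted p of H2-DMa 0.185 without the block). The count of increases was 6 without the block and 6 to 11 when 1 array was left out, with 6 of them without GW7845 + LPS 1 or without untreated 2. The costimulatory receptor Cd40 went from 1.11 and 0.74 to 6.65 and 6.89, an increase of 5.85 (SE 0.28). The peptide transporter Tap1 rose by 3.68 (SE 0.45), the costimulatory ligand Cd86 by 3.20 (SE 0.29) and the checkpoint ligand Cd274 (PD-L1) by 2.94 (SE 0.23). The class II genes H2-Aa, H2-Ab1, H2-Eb1 and Cd74 and their activator Ciita lay between -0.64 and -0.14 and did not pass. B2m, the light chain of class I, was at -0.09 (SE 0.31) and the protease Ctss at -0.23 (SE 0.30), and neither passed.

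**Figure D3:**
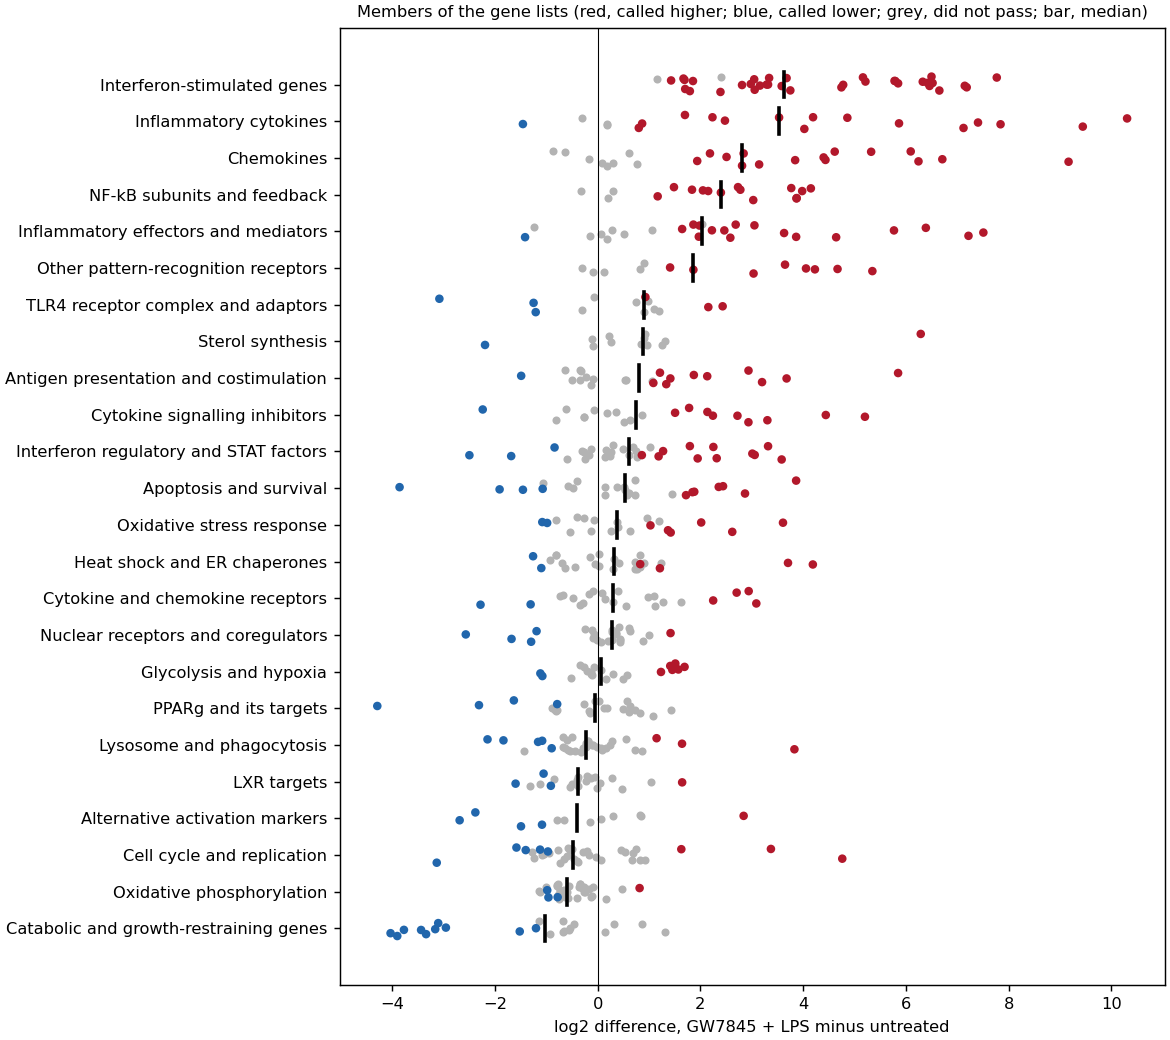
Each point is 1 tested gene of 1 of 24 gene lists, at its log2 difference, GW7845 + LPS minus untreated (horizontal axis); red points were called higher, blue points lower and grey points did not pass, and the bar is the list's median. The list medians run from 3.63 for interferon-stimulated genes to -1.03 for catabolic and growth-restraining genes, against 0.06 for all tested probes.

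The largest decrease of a named gene was that of Pparg, which encodes the receptor that GW7845 binds. It lay at 4.30 and 4.47 in untreated cells and at 0.04 and 0.15 with GW7845 + LPS, and fell by 4.29 (SE 0.34, adjusted p = 6.1e-07), or 19.5-fold, with both pairs of arrays close together. Of 23 tested genes in the list of Pparg and its known targets, 4 fell and 0 rose, against 8.99% and 8.62% of all tested probes (median -0.05; 3 fell without the block, and 2 without GW7845 + LPS 2). Fabp4, which carries fatty acids, went from 8.54 and 7.97 to 6.32 and 5.57 and fell by 2.31 (SE 0.34, adjusted p = 0.00029). Klf4, a transcription factor of the list, went from 3.96 and 3.51 to 2.27 and 1.95 and fell by 1.63 (SE 0.34), a call lost without GW7845 + LPS 2, and the fatty acid oxidation gene Ech1 fell by 0.79 (SE 0.24, adjusted p = 0.18 without the block). Cd36, the scavenger receptor that takes up fatty acids and oxidised lipoprotein, lay at 3.07 and 5.58 in untreated cells and at 6.13 and 5.36 with GW7845 + LPS; the groups overlapped, and the difference of 1.42 (SE 0.59, adjusted p = 0.12) did not pass. The lipoprotein lipase Lpl lay at 8.97 and 8.64 and at 8.94 and 8.57, a difference of -0.05 (SE 0.26). Fabp5 at -0.84 (SE 0.34, adjusted p = 0.11) did not pass either.

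Other nuclear receptors and coregulators gave 1 increase and 4 decreases among 25, against 8.62% and 8.99% of all tested probes (0 and 2 without the block; 0 and 1 to 3 on leaving out 1 array, with 1 decrease left without GW7845 + LPS 2). The coactivator Ppargc1b, which serves mitochondrial genes, went from 1.43 and 1.22 to -0.54 and -1.95 and fell by 2.57 (SE 0.49), a call lost without GW7845 + LPS 2. Rxrg, a partner of PPARγ, went from 2.86 and 2.998 to 1.08 and 1.42 and fell by 1.68 (SE 0.28), while its relative Rxra at -0.07 (SE 0.43) did not pass. Rora fell by 1.29 (SE 0.34) and the glucocorticoid receptor gene Nr3c1 rose by 1.42 (SE 0.39); without the block their adjusted p was 0.069 and 0.18. The orphan receptor Nr2f6 fell by 1.19 (adjusted p = 0.11 without the block). Ncoa1 at -0.25 (SE 0.27) and Esrra at 0.35 (SE 0.27) did not pass.

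Among 21 targets of the LXRs, 1 rose and 3 fell, against 8.62% and 8.99% of all tested probes (0 and 1 without the block; 0 and 1 to 4 on leaving out 1 array, with 1 decrease left without untreated 1 and 2 without either GW7845 + LPS array). The cholesterol exporter Abca1 went from -2.83 and -2.29 to -0.52 and -1.32, an increase of 1.65 (SE 0.46, adjusted p = 0.024), which was lost under 7 of the alternatives, the fit without the block among them (adjusted p = 0.095). Its relative Abcg1 at -0.38 (SE 0.33) and the apolipoprotein Apoe at -1.11 (SE 0.40, adjusted p = 0.070) did not pass. Eepd1 fell by 1.60 (SE 0.26), the lipogenesis regulator Mid1ip1 by 1.05 (SE 0.25) and Cd5l, a secreted survival factor of macrophages, by 0.91 (SE 0.24); of these, Mid1ip1 (adjusted p = 0.18) and Cd5l (adjusted p = 0.18) did not pass without the block. Nr1h3, the LXRα gene, had no value on any array of set B, so each group had 1 value. Its difference of 0.47 has no replicate spread of its own behind it. The oxysterol-making enzymes moved apart, with Ch25h up by 6.29 (SE 0.65) and Cyp27a1, which went from 3.20 and 3.30 to 0.96 and 1.16, down by 2.19 (SE 0.27).

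Genes that restrain growth or serve catabolism formed the list with the lowest median, -1.03, with 10 of 22 tested members lower and 0 higher (8 lower without the block). All the lists were chosen with earlier results of these data known. This one was put together with decreases in these arrays already known. Its count, like those of the other lists, is therefore no independent evidence of its direction. The lipid phosphatase and coactivator Lpin1 went from 2.67 and 2.38 to -1.90 and -1.11 and fell by 4.03 (SE 0.42). The mTOR inhibitor Deptor went from 3.72 and 3.45 to -0.39 and -0.24 and fell by 3.90 (SE 0.53), and a second probe for it gave a decrease of 3.65. The ubiquitin ligase Fbxo32, known from muscle atrophy, fell by 3.77 (SE 0.38) and the clock output factor Dbp by 3.44 (SE 0.38). Klf2 at -1.14 (SE 0.44, adjusted p = 0.0965) and the mTOR pathway inhibitor Tsc2 at -0.67 (SE 0.26, adjusted p = 0.0945) did not pass.

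The other decreases among the 12 largest covered varied functions. Rgs2, which shortens G protein signals, went from 6.83 and 6.68 to 2.97 and 3.26 and fell by 3.64 (SE 0.23). The growth arrest gene Gadd45g went from 5.27 and 4.23 to 0.28 and 1.50 and fell by 3.85 (SE 0.32). In both genes the untreated arrays lay above the treated ones by more than 2. The hyaluronidase Hyal1 fell by 4.11 (SE 0.38), the mitochondrial sulfurtransferase Tst by 3.74 (SE 0.43) and the kinase Matk, which inhibits Src kinases, by 3.45 (SE 0.27). Tmem273 and Susd3 fell by 4.09 (SE 0.47) and 3.96 (SE 0.46). Tns1, a focal adhesion gene, fell by 3.73 (SE 0.96, adjusted p = 0.016), a call lost without the block (adjusted p = 0.054) and when GW7845 + LPS 2 or either untreated array was left out.

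Of 12 markers of alternative activation tested, 4 fell and 1 rose, against 8.99% and 8.62% of all tested probes (2 and 0 without the block; 1 fell without GW7845 + LPS 2 or untreated 1). Gas6, a ligand for the uptake of dying cells, went from 2.70 and 2.13 to -0.55 and 0.00 and fell by 2.69 (SE 0.34), the growth factor Igf1 fell by 1.49 (SE 0.31; no call without GW7845 + LPS 2 or untreated 1), F13a1 by 2.38 (SE 0.64, adjusted p = 0.27 without the block) and Folr2 by 1.08 (adjusted p = 0.11 without the block). The increase was Ccl17, described above. Retnla at -0.80 (SE 0.33, adjusted p = 0.12) and Chil3 at -0.15 (SE 0.77) did not pass. The complement genes C1qc and C1qb, made by resident-type macrophages, fell by 2.14 (SE 0.51) and 1.83 (SE 0.53), and neither passed without the block (adjusted p = 0.30 and 0.22).

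Whether the response with GW7845 differed from that to LPS alone was tested as GW7845 + LPS minus LPS, in which the untreated arrays cancel. No probe was called (0 of 9584) by limma, with 569 (5.94%) at an unadjusted p under 0.05, or 138 (1.44%) without the block; leaving out GW7845 + LPS 2 or LPS 1 gave 3 and 2 calls. The typical 95% interval was 1.67 wide (the median over probes). The 8 genes with the smallest p were all lower with GW7845. Rgs5, another G protein regulator, lay at 0.71 and -1.26 with LPS and at the floor and -2.67 with GW7845 + LPS, a difference of -2.99 (SE 0.47, adjusted p = 0.091) that the floor makes a minimum in size. A probe without a symbol (3661) was higher by 2.79, with the same adjusted p. Next came the POU factor Pou3f1 at -1.99, Klf4 at -1.71, the prothrombinase Fgl2 at -1.33, Ccl12 at -2.42, the cytoskeletal gene Dpysl3 at -1.996, Il15 at -1.31 and Ccl2 at -1.69, with adjusted p from 0.24 to 0.28.

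Some genes show where both responses stood beside the untreated arrays that they share. Ccl2 rose by 4.61 with GW7845 + LPS and by 6.31 with LPS. Klf4 was 1.63 below untreated with GW7845 + LPS and differed by 0.08 with LPS alone, where its arrays were at 4.30 and 3.34. Il10 and Nos2, not among the 8, rose by 1.70 and 1.97 with GW7845 + LPS and by 3.03 and 3.36 with LPS; their differences between the treatments were -1.33 (95% interval -1.996 to -0.66) and -1.39 (-2.18 to -0.61), and neither passed after adjustment (adjusted p = 0.43 and 0.52). For Tnf the difference was -0.32 (-1.03 to 0.39), for Il1b -0.30 (-1.57 to 0.97), for Ifit1 -0.06 (-0.89 to 0.76), for Pparg -0.13 (-0.85 to 0.59) and for Cd36 1.30 (0.04 to 2.56).

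**Figure D4:**
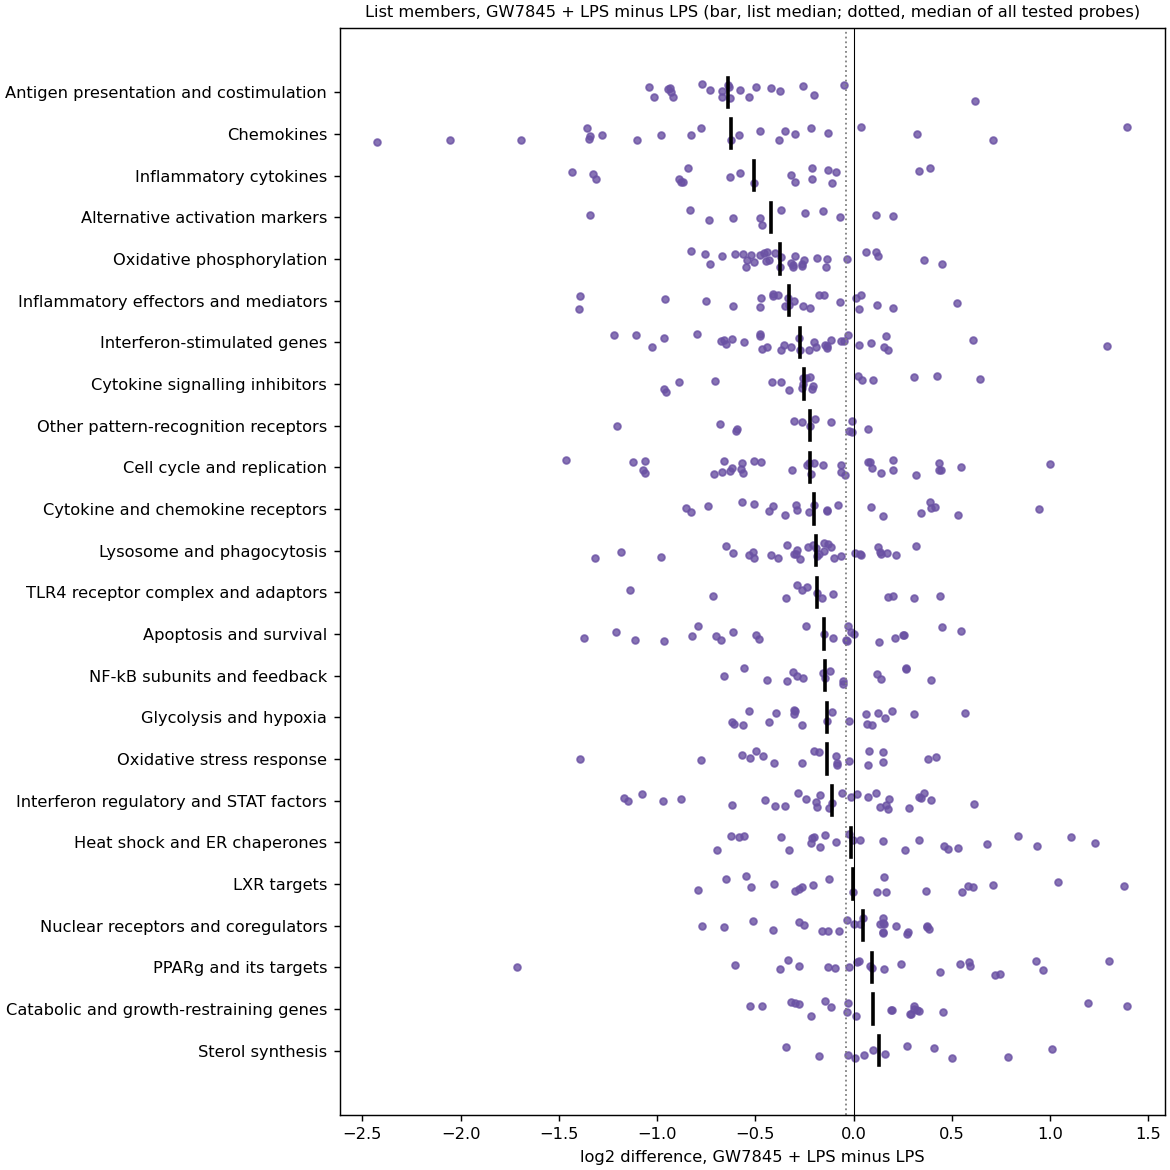
Each point is 1 tested gene of 1 of 24 gene lists, at its log2 difference, GW7845 + LPS minus LPS (horizontal axis); bars are list medians, lists are ordered by them, and the dotted line is the median of all tested probes, -0.04. The medians run from -0.64 for antigen presentation to 0.13 for sterol synthesis, and 20 of 24 lie below 0, inflammatory and other lists among them.

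Of all tested probes, 53.3% lay below LPS alone. Of the 24 gene lists, 20 had a median below 0, or 14 after quantile normalization, under which 49.1% of all probes lay below 0. Among the inflammatory lists, 21 of 22 genes of antigen presentation and costimulation (median -0.64), 19 of 23 chemokines (-0.62), 17 of 19 cytokines (-0.51), 19 of 25 effectors (-0.33) and 29 of 36 interferon-stimulated genes (-0.27) lay below LPS alone. Other lists lay below it as well, with 10 of 12 alternative activation markers (-0.42), 29 of 34 respiratory chain genes (-0.37), 26 of 35 lysosome genes (-0.19) and 5 of 6 B cell markers (-0.43). After quantile normalization the counts were 19, 18, 13, 15 and 21 for the inflammatory lists and 10, 23, 17 and 5 for the others, in the same order. In array sets A and B the medians were -1.06 and -0.29 for chemokines, -0.91 and -0.40 for antigen presentation and -0.75 and -0.04 for the respiratory chain. They were -0.60 and -0.39 for cytokines and -0.38 and -0.27 for effectors. For interferon-stimulated genes the order was the opposite, at -0.18 in set A and -0.45 in set B. The summed macrophage markers in array sets A and B were 2736 and 1770 with LPS and 1692 and 1570 with GW7845 + LPS. In untreated cells they were 1950 and 1143. LPS 1, in set A, had the highest of these sums, and the sets were closest with GW7845 + LPS. The part of this in the list values was not tested. No gene passed the test. Of the PPARγ target list, 8 of 23 lay below 0, and of the sterol synthesis list 3 of 12.

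The same response was set beside that with the LXR agonist GW3965, as GW7845 + LPS minus GW3965 + LPS. Limma called 6 probes (0.0626%), 2 higher (0.0209%) and 4 lower (0.0417%), with 569 (5.94%) at an unadjusted p under 0.05. Cd5l, an LXR target, lay at 3.06 and 3.66 with GW7845 + LPS and at 6.00 and 5.85 with GW3965 + LPS, a difference of -2.56 (SE 0.24, adjusted p = 0.00021). Eepd1 differed by -2.06 (SE 0.26, adjusted p = 0.0046) and Mid1ip1 by -1.63 (SE 0.25, adjusted p = 0.029), both listed as LXR targets too. Slfn4, an interferon-induced gene of the Schlafen family, lay at 4.28 and 4.52 with GW7845 + LPS and at 1.97 and 2.37 with GW3965 + LPS, a difference of 2.23 (SE 0.29, adjusted p = 0.0047). The other two were probes without a gene symbol, at 4.71 and -1.44. For none of the 6 did the 2 groups overlap, which largely follows from the call and is no separate support. The share of all probes without overlap was not counted for this comparison. The count was 1 (0.0104%) without the block, 3 without GW7845 + LPS 1, 12 without GW7845 + LPS 2, 2 without GW3965 + LPS 1 and 48 without GW3965 + LPS 2; it was 17 without the array GW7845 + PolyIC 1, which is in neither group.

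**Figure D5:**
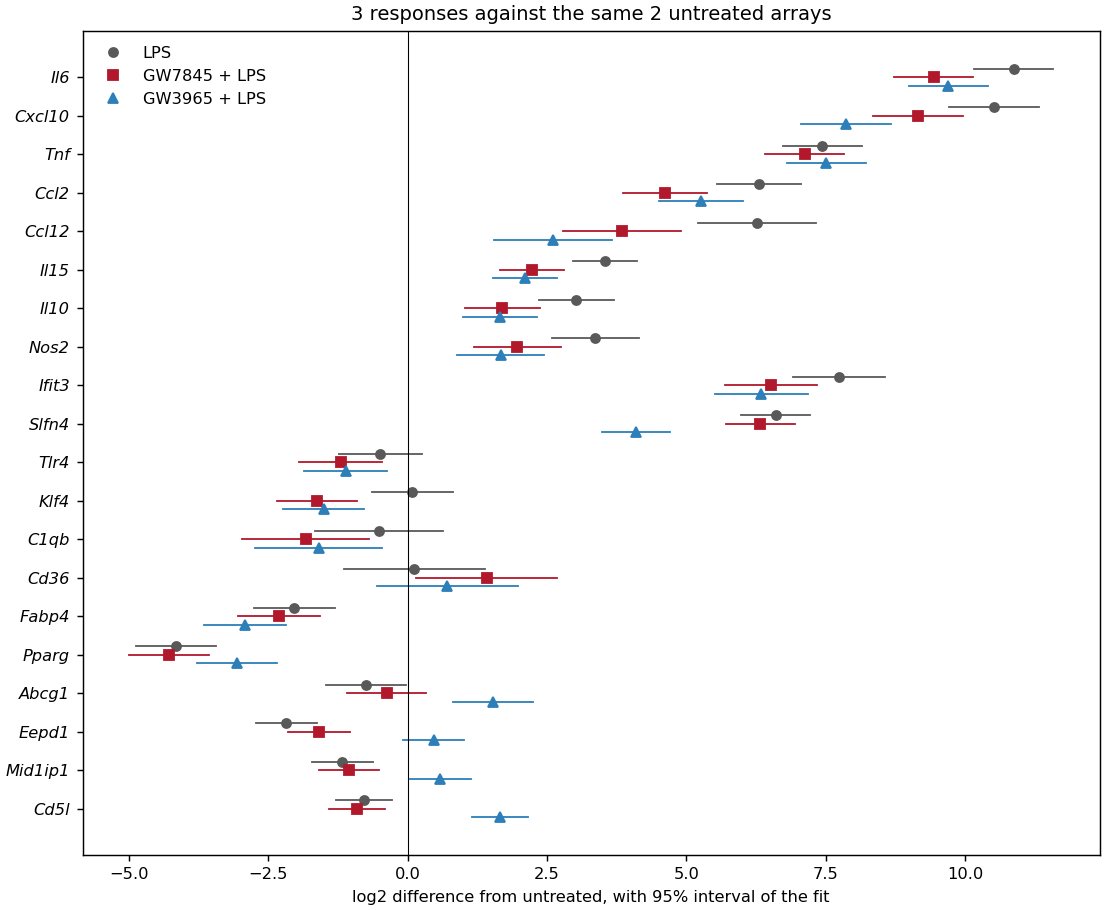
Log2 difference from untreated of 20 genes with LPS (grey circles), GW7845 + LPS (red squares) and GW3965 + LPS (blue triangles), with the 95% interval of the fit; all 3 use the same 2 untreated arrays. Cd5l is at -0.91 with GW7845 + LPS and at 1.65 with GW3965 + LPS, Pparg is at or below -3.06 in all 3, and Klf4 is at 0.08 with LPS alone and at -1.63 with GW7845 + LPS.

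Against the same untreated arrays, LPS alone gave 1703 calls (17.8%) and GW3965 + LPS 1580 (16.5%), beside the 1688 with GW7845 + LPS. Pparg fell by 4.16 with LPS, 4.29 with GW7845 + LPS and 3.06 with GW3965 + LPS. Abca1 rose by 1.65 with LPS, by 1.65 with GW7845 + LPS and by 3.77 with GW3965 + LPS, and Abcg1 was at -0.75, -0.38 and 1.53. Tnf rose by 7.44, 7.12 and 7.51 in the same order. Over all groups of the series, the mean level of Pparg was 4.39 in untreated cells, 0.42 with poly(I:C), a mimic of viral double-stranded RNA, 0.60 with GW7845 + poly(I:C) and 1.38 with GW3965 + poly(I:C).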

How the data were processed

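Biotin-labelled cRNA, made from 0.5 µg of total RNA per the labels' protocols, had been measured on 1-colour arrays. The authors deposited 1 linear intensity per probe and array, scaled to a median of 1 (1.001 on 1 array); how the scanner software treated background and scale is not given in the sources used here, and values at or below 0 made up at most 0.421% of an array. Arrays were grouped by their titles. Of 10012 probes, 8983 had 1 gene symbol in the platform annotation.

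Intensities below 0.0686, the 5th percentile of positive values, were set to it before log2 transformation. Probes were tested where at least 2 of 14 arrays exceeded their own 20th percentile. Group means of all 14 arrays, which share 1 estimate of the spread, were fitted in limma 3.58.1 (R 4.3.3) with the array set as a block (6 residual degrees of freedom), eBayes with an intensity trend, two-sided, with Benjamini-Hochberg adjustment over the 9584 probes. The code was tested on simulated data. For each gene the probe of highest mean level was used. Depth has no counterpart here; the number of arrays limits the precision.

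The replicate numbers were checked for pairing. Deviations from the group means correlated at 0.354 to 0.674 between arrays of the same set (42 pairs), but at -0.391 between GW7845 + LPS and untreated arrays of the same number, since the numbers of GW7845 + LPS run opposite to the sets. With 2 arrays a group the 2 deviations mirror each other. Each value of set A thus recurs in set B, and the -0.391 is a same-set value with its sign changed, not a separate result. The set, not the number, served as the block. Named genes were the 12 largest called increases and decreases whose groups did not overlap and which moved the same way in both sets, up to 4 called and 2 uncalled members of each list, a panel of 23 known genes, and the genes called, or the 8 of smallest p, against the other LPS groups. Members of small counts, list members given to fill in a group and probes without a symbol were named after their values were seen. The members and lists were chosen with earlier results of these data known. Alternatives changed the block, scaling, filter, floor, variance trend and arrays used.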

Additional observations from a re-analysis of the deposited data

Results flagged for a closer look

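Each of the 6 probes below was listed because the response with GW7845 + LPS and the response with GW3965 + LPS differed by limma's test of that difference. The differences, GW7845 + LPS minus GW3965 + LPS on the log2 scale, were -2.56 for Cd5l, -2.06 for Eepd1, -1.63 for Mid1ip1 and 2.23 for Slfn4. Relative to untreated cells, Cd5l was at -0.91 with GW7845 + LPS and at 1.65 with GW3965 + LPS, Eepd1 at -1.60 and 0.46, Mid1ip1 at -1.05 and 0.58, and Slfn4 at 6.33 and 4.10. Of these 8 values, those of Eepd1 and Mid1ip1 with GW3965 + LPS did not pass. A probe without a symbol (3661) differed by 4.71, with levels of 1.90 and 2.88 with GW7845 + LPS, -1.23 and -3.40 with GW3965 + LPS and 1.68 and -0.28 in untreated cells. Another (4796) differed by -1.44, with levels of 6.34 and 5.98 with GW7845 + LPS and 7.58 and 7.61 with GW3965 + LPS. Groups of 2 arrays are too small for the check on single outlying arrays.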

How the results depend on the processing

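The 1688 calls against untreated cells became 628 without the array-set block and 966 with the replicate block, which pairs arrays by title number (545 higher, 421 lower; 963 shared with the 1688). Crossing the numbers of GW7845 + LPS, an alternative added after seeing the data, gives the array-set fit again (1688). Leaving out 1 array gave 841 to 1161; the remaining alternatives gave 1363 to 1793. Against LPS alone the count was 0 under every alternative except that leaving out 1 array gave 0 to 3. Against GW3965 + LPS the 6 calls became 1 without the block, 15 after quantile normalization, 11 with a floor at the 10th percentile, 2 without the intensity trend, 17 without the array GW7845 + PolyIC 1 and 2 to 48 on leaving out 1 array; the replicate block gave 4. Quantile normalization moved the median difference from untreated of all probes from 0.06 to -0.06. Of the 117 named genes called against untreated, 82 held under all 16 alternatives, 30 lost the call without the block and 31 on leaving out 1 array, and 0 values reversed. The cause of these shifts was not tested. With 2 arrays a group and no detection calls, sizes of increases from levels near the floor are approximate.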

Other observations

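Over all tested probes 8.62% were called higher and 8.99% lower, and the main counts of the lists below are to be read against these shares. Without the array-set block the shares were 4.34% and 2.21%. Of 34 respiratory chain and ATP synthase genes, 3 fell and 1, the cytochrome c gene Cycs, rose by 0.82 (SE 0.26); the list median was -0.59, at -1.04 in array set A and -0.18 in set B, and none passed without the array-set block (0 rose and 0 to 2 fell on leaving out 1 array), so these counts were at or under the shares of all probes. The decreases were in Ndufa7 (-0.98), Atp5c1 (-0.96) and Ndufa1 (-0.78). After quantile normalization 12 of the 34 were called lower, beside 904 of all 9584 tested probes. Of 21 genes of glycolysis and hypoxia, 6 rose, among them the transporter Slc2a1 (1.57, SE 0.34), the phosphofructokinase Pfkp (1.51, SE 0.36) and Hif1a (1.45, SE 0.28), and 2, Pfkm and Ndrg1, fell by 1.11 and 1.08; without the block 2 rose and 0 fell, and 1 and 2 rose without GW7845 + LPS 2 and untreated 1. Gapdh at -0.35 (SE 0.30) and Ldha at 0.17 (SE 0.26) did not pass. Of 20 oxidative stress genes, 6 rose and 2 fell (4 and 0 without the block), with the mitochondrial superoxide dismutase Sod2 at 3.61 (SE 0.36), the cystine importer Slc7a11 at 2.62 (SE 0.27) and the glutathione reductase Gsr at 2.02 (SE 0.36).

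Of 26 heat shock and ER chaperone genes, 4 rose and 2 fell (2 and 0 without the block), led by the inducible chaperones Hspa1a (4.19, SE 0.31) and Hspa1b (3.71, SE 0.28), which are near-identical copies whose probes may share signal; the 2 decreases were under the share of all probes. The stress factor Ddit3 fell by 1.26 and the ER chaperone Calr by 1.10. Of 25 apoptosis and survival genes, 7 rose and 4 fell; the ligand Tnfsf9 rose by 3.86 (SE 0.33) and the inflammatory caspase Casp4 by 2.87 (SE 0.27), and Gadd45a fell by 1.91. Of 36 cell cycle genes, 3 rose and 5 fell (2 and 1 without the block): Ccnd2 rose by 4.76 (SE 0.50), Mki67 by 3.37 (SE 0.24) and Cdkn1a by 1.63 (SE 0.35, adjusted p = 0.069 without the block), while the checkpoint kinase Chek2 fell by 3.13 (SE 0.39). Of 35 lysosome and phagocytosis genes, 3 rose and 5 fell (2 and 0 without the block), the increases at about the share of all probes, with the uptake receptor Axl up by 3.83 (SE 0.61) and the scavenger receptor Msr1 by 1.15 (SE 0.24, adjusted p = 0.071 without the block).

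Along the chromosomes, in the order of measured genes, 22 runs of 3 to 5 neighbours were called higher and 9 runs of 3 called lower, and how many runs chance would give was not tested. Some held related genes, as in Slfn2, Slfn1, Slfn4, Slfn3 and Ap2b1, in Gbp3, Gbp2b, Gbp2 and Lmo4, and in H2-Q1, H2-Q5, H2-Q6 and H2-Q7, where related genes can share probe signal and the last gene of the first run and of the second belongs to no such family. Others held genes of no shared family, as in Prkar2b, Pik3cg, Ccdc71l and Nampt, in Il31, Diablo and Vps33a, and, among those called lower, in Rb1, Lpar6 and Itm2b. The largest decrease of any probe, -6.47, and one of the larger increases, at least 7.83, came from probes without a symbol (946 and 8029). Of 128 genes with more than 1 tested probe, 3 had probes called in opposite directions.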
